A study of Mus musculus with 6 samples.

Results

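The cell cycle and DNA replication genes examined here are 50 genes in 3 roles: 7 cyclins and transcription factors (called G1/S control, although Foxm1 and Mybl2 also act in G2), 20 of DNA replication, nucleotide synthesis and chromatin copying (called S phase) and 23 that act mainly in G2 and mitosis (called mitotic). They were followed in the developing mouse kidney with and without the Wnt and Norrin receptor frizzled 4. A probe set was used where the platform annotation gives it to a member gene alone, and each gene was read from its brightest probe set by the mean of all arrays. On this rule 49 of the 50 genes had a probe set, out of 18193 genes with one of their own, and all 49 passed the filter on low signal. Ccnb1, cyclin B1, had none in the annotation used here, so 22 mitotic genes were measured.

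Whole kidneys of mouse embryos at E13.5 were read on Affymetrix MOE430.2 arrays, which measure labelled cRNA on short oligonucleotides grouped into probe sets. Of the 6 arrays, 3 were of Fz4-/- and 3 of Fz4+/+ kidneys, and litters 1, 2 and 3 each gave 1 sample of each genotype. The labels name no other allele or treatment, and they leave out how the Fz4 allele was made and how many embryos went into each sample. The tests thus rest on the spread between 3 samples per genotype, part of which may be technical. Values are log2 signals, differences are Fz4-/- minus Fz4+/+, and levels of different probe sets are not compared.

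The label check came from Fzd4, the gene that was disrupted. Its brightest probe set read 4.37, 3.58 and 6.22 in the Fz4-/- samples of litters 1 to 3 and 11.21, 11.12 and 10.31 in the Fz4+/+ samples, so the groups were far apart. Even this gene missed the threshold in the limma fit over all 27022 tested probe sets (adjusted p = 1.00). Its Fz4-/- values were spread from 3.58 to 6.22. Its miss therefore does not give the size of difference left uncalled in genes with less spread. The first principal component held 70.8% of the variance, and on it both samples of litter 3 lay apart from the other 4. Array medians ran from 6.62 to 6.74. Of the kidney lists, 11 of 11 measured nephron progenitor genes and 11 of 11 stromal genes passed the filter on low signal. So did 14 of 16 ureteric bud, 11 of 12 early nephron epithelium and 10 of 10 endothelial genes. Of all genes, 12535 of 18193 passed on their brightest probe set.

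A dividing cell decides in G1 whether to copy its DNA. Cyclin D and cyclin E kinases release the E2F factors, which switch on genes for the replicative helicase (the MCM proteins), its loaders, the polymerases and nucleotide synthesis. Later, cyclins A and B with Cdk1 drive mitosis, whose genes are read in G2 by complexes that hold the MuvB core, Mybl2 and Foxm1 and that bind the CHR element, often beside CCAAT boxes. In the embryonic kidney, division supports the branching ureteric bud and the nephron progenitors that cap its tips.

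Promoters of 6 members are shown because the S phase and mitotic genes, which are compared in each sample, carried different motifs. The 6 were picked among members given per sample whose window held a match, 3 of each role, those with most matches first. They come from RefSeq promoter windows of build GRCm38.p6, and each run gives 200 bases before to 30 after the start of the gene, read along the strand of the gene. Mcm3 (chr1:20820283-20820512, minus strand), Mcm5 (chr8:75109309-75109538, plus strand) and Mcm2 (chr6:88898751-88898980, minus strand) are S phase genes. Mki67 (chr7:135716350-135716579, minus strand), Aurka (chr2:172370541-172370770, minus strand) and Cenpa (chr5:30666686-30666915, plus strand) are mitotic genes. Capitals mark every match, on either strand, to an E2F site (TTTCCCGC, TTTGGCGC, TTTCGCGC or TTTGCCGC), to the CHR (TTTGAA) or to the CCAAT box, whose reverse complement reads ATTGG.
Mcm3: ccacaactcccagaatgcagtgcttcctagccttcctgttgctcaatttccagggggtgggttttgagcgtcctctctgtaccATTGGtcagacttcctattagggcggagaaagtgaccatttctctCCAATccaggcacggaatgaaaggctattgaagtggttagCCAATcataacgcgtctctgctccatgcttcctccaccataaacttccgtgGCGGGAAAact
Mcm5: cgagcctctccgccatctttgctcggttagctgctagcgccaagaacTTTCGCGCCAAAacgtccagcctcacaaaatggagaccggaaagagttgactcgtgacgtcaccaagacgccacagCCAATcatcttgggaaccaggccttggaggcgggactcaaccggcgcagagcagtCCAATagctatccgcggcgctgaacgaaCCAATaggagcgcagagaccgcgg
Mcm2: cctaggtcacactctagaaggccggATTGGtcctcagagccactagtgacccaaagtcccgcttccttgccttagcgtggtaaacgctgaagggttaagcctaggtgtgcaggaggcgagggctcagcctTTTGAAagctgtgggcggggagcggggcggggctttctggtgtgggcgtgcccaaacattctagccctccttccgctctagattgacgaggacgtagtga
Mki67: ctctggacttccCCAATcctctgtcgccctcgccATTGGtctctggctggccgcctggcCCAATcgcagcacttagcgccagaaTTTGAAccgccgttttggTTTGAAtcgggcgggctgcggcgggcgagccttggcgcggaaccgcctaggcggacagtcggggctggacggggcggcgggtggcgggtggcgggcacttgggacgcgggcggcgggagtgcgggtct
Aurka: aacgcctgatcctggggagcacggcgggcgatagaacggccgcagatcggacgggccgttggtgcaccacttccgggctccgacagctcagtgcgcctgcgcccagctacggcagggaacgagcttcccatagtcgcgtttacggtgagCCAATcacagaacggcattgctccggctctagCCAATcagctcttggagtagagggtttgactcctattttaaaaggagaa
Cenpa: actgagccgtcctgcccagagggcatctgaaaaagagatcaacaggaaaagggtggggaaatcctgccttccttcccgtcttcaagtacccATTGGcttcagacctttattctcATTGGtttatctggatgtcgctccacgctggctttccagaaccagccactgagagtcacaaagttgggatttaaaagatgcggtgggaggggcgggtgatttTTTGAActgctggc
Mcm3 and Mcm5 each showed an E2F match within these bases, and Mcm2 showed a CHR match and no E2F match. In Mki67 the CHR letters occurred 2 times and the CCAAT box 3 times. The CHR match of Aurka lies in the part of its window that is not printed.

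Windows of 300 bases, 250 before to 50 after the start, were held for 38 of the 50 members, some with more than 1 start, which gave 19 S phase, 18 mitotic and 3 G1/S control windows. An E2F match was present in 9 of 19 S phase windows (47.4%), in 1 of 18 mitotic windows (5.56%, Cdk1) and in 2.26% of all 32851 windows. A CHR match was present in 2 of 19 S phase windows (10.5%), 13 of 18 mitotic windows (72.2%) and 17.9% of all windows. The CCAAT box was found in 14 S phase windows (73.7%), 16 mitotic windows (88.9%) and 37.4% of all windows. All 13 mitotic windows with a CHR match also held a CCAAT box, a pair found in 6.95% of all windows. The 3 G1/S control windows (Ccne1, E2f1 and Mybl2) held none of these letters. A match is a run of letters and was not tested as a binding site, and overlapping matches of a motif were counted as 1.

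No difference between Fz4-/- and Fz4+/+ kidneys was detected in any of the 49 measured genes. The fit called 0 of them at an adjusted p of 0.05 (0% of all tested probe sets, limma), and 0 had an unadjusted p under 0.05, against 0.884% of all tested probe sets. Differences ran from -0.13 for Cenpf to 0.14 for Aurka. Of the 49, 25 lay above 0 and 24 below, whereas 61.6% of all tested probe sets lay above 0. The median was 0.0069 for the members and 0.033 for all tested probe sets. All 49 differences were within 0.2 log2 of 0, where 81.1% of all tested probe sets lay. That share was 84.5% with 1 probe set per gene, as for the members, and 88.7% at or above the 60th percentile of signal. These are whole kidneys, so fewer cells of a type and less RNA per cell cannot be told apart.

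The 95% intervals of the 49 differences reached from -0.63 to 0.47, and 47 of them lay within 0.5 log2 of 0, a 1.41-fold change either way. The intervals of Cenpe and Cenpf were wider. The median distance from a difference to the end of its interval was 0.30. These intervals are not adjusted for the number of tests, and the adjusted threshold needed larger differences. With litter as a block in the fit, 0 of 49 again had an unadjusted p under 0.05, and the intervals spanned -0.56 to 0.48.

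**Figure D1:**
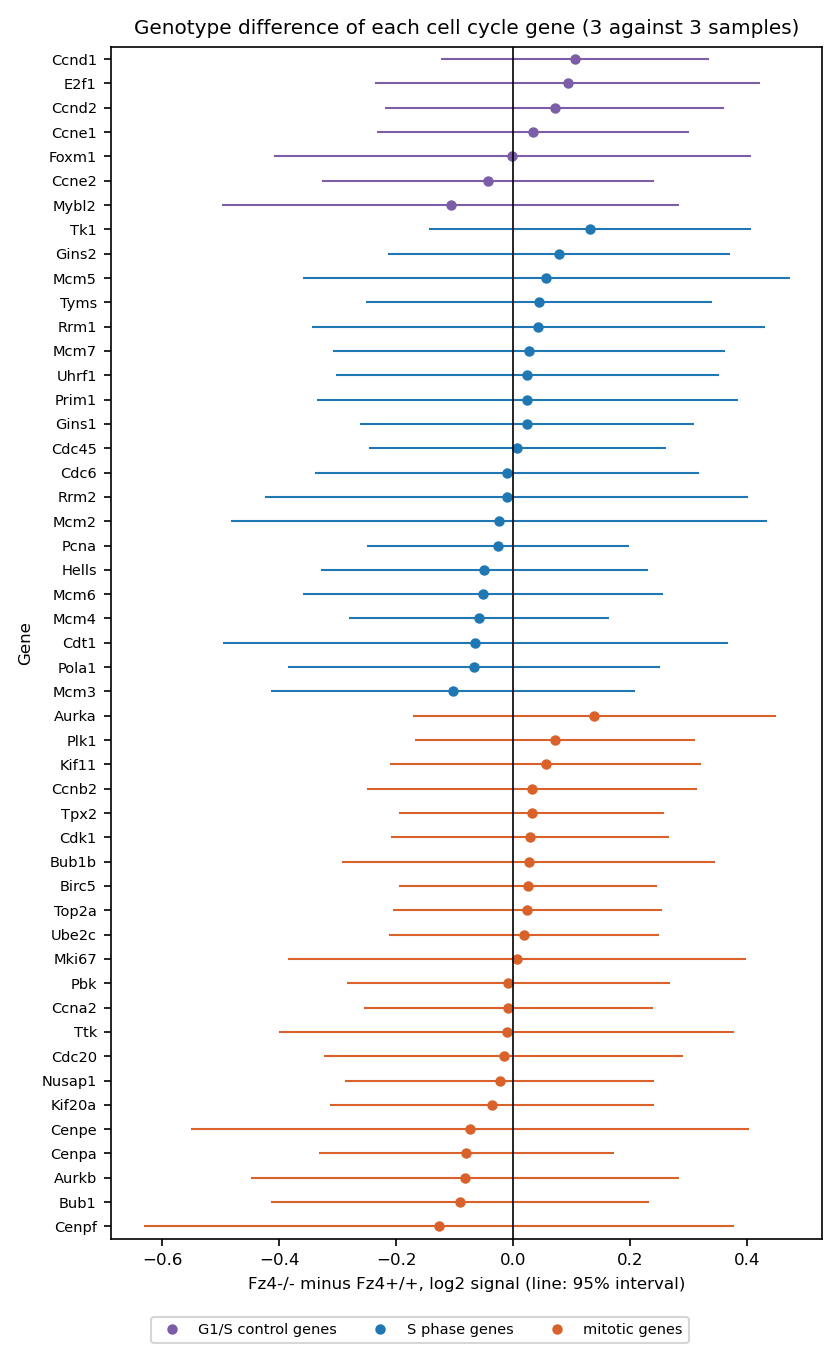
Each point is the difference of a gene between the genotypes (Fz4-/- minus Fz4+/+, log2 signal, 3 against 3 samples), and each line is its 95% interval, with genes ordered by difference within each role. All 49 intervals cross 0, and the points lie between -0.13 and 0.14.

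Among the G1/S control genes the median difference was 0.034, with 4 of 7 above 0. It ran from -0.028 to 0.10 when 1 sample was left out, and those of the S phase (-0.043 to 0.059) and mitotic genes (-0.058 to 0.034) changed sign too. Ccnd1, cyclin D1, which couples growth signals to G1 kinases, read 12.60, 12.63 and 12.56 in the Fz4-/- samples of litters 1 to 3 and 12.55, 12.46 and 12.46 in the Fz4+/+ samples. All 3 Fz4-/- values were above all 3 Fz4+/+ values, by a mean of 0.11 ± 0.094 (SE; 95% interval -0.12 to 0.34; limma adjusted p = 1.00). Values without overlap and higher in Fz4-/- were seen in 2.42% of all tested probe sets, and Ccnd1 was the 1 such member of 49. Its other probe sets differed by 0.16 and 0.20. One of them, read at 10.44, 10.66 and 10.47 against 10.30, 10.36 and 10.44, was again without overlap before rounding. On the other, 8.15, 8.38 and 8.38 against 8.19, 7.84 and 8.28, the groups overlapped.

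Ccnd2, the second D-type cyclin of the list, read 12.58, 12.67 and 12.74 in Fz4-/- and 12.49, 12.52 and 12.76 in Fz4+/+ kidneys (difference 0.071 ± 0.12, SE). The highest value was that of Fz4+/+ litter 3, so the groups overlapped. Litter 3 minus litter 1 was 0.21 on this probe set of Ccnd2 and ran from -0.15 to 0.64 on its others. The E-type cyclins, which act with Cdk2 at the start of DNA synthesis, were no further apart between genotypes. Ccne1 gave 10.52, 10.57 and 10.57 against 10.51, 10.40 and 10.66. Ccne2 gave 9.30, 9.60 and 9.54 against 9.52, 9.48 and 9.56, with its lowest value in Fz4-/- litter 1. Foxm1, a transcription factor of G2 and mitotic genes, read 8.96, 8.83 and 8.99 against 8.79, 8.73 and 9.26. The 2 extreme values of Foxm1 were both from Fz4+/+ kidneys, and its range of 0.53 was the widest of this role.

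The 20 S phase genes had a median difference of -0.0013, with 10 above 0 and 10 below. Mcm4, a helicase subunit, read 11.92, 11.89 and 11.92 in Fz4-/- and 11.94, 12.00 and 11.97 in Fz4+/+ kidneys. All Fz4-/- values were below all Fz4+/+ values, by 0.058 ± 0.091 (SE), a pattern seen in this direction in 1.21% of all tested probe sets and in this member alone. On the other probe set of Mcm4, 11.50, 11.57 and 11.34 against 11.39, 11.95 and 11.44, the groups overlapped. Mcm3, of the same ring, gave 11.37, 11.38 and 11.23 against 11.23, 11.50 and 11.55 (difference -0.10 ± 0.13), and here the groups overlapped. Mcm2, a helicase subunit often used as a mark of cycling cells, read 10.63, 10.75 and 10.90 against 10.42, 10.88 and 11.05. Its lowest and highest values were both from Fz4+/+ kidneys, and the difference was -0.024 ± 0.19.

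Tk1, the salvage enzyme thymidine kinase, had the smallest unadjusted p among the members (0.288, limma). It read 10.99, 11.06 and 11.00 in Fz4-/- and 11.02, 10.74 and 10.89 in Fz4+/+ kidneys, a difference of 0.13 ± 0.11 (SE; 0.059 without Fz4+/+ litter 2), with Fz4+/+ litter 1 inside the range of the Fz4-/- samples. Pcna, the sliding clamp of the polymerases, was nearly level at 12.929, 12.920 and 12.957 against 12.967, 12.920 and 12.998. Its range over all 6 arrays, 0.079, was the narrowest of the S phase genes. Cdt1, which loads the helicase, had the widest range of this role, 0.63, with 11.73, 11.81 and 11.66 against 11.49, 11.78 and 12.13. Both ends of that range were Fz4+/+ samples, those of litters 1 and 3.

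The 22 mitotic genes had a median difference of -0.00063, with 11 above 0 and 11 below. Mki67, the proliferation marker Ki-67, read 12.43, 12.40 and 12.68 in Fz4-/- and 12.35, 12.37 and 12.78 in Fz4+/+ kidneys. The groups overlapped and the means differed by 0.0069 ± 0.16 (SE). Aurka, a kinase of the spindle poles, gave 10.10, 10.23 and 10.21 against 10.08, 9.84 and 10.19 (difference 0.14 ± 0.13, and 0.041 without Fz4+/+ litter 2). The lowest value, that of Fz4+/+ litter 2, stood apart, and the other 5 lay between 10.08 and 10.23.

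Cenpf, a kinetochore protein, had the largest negative difference, -0.13 ± 0.21 (SE), from 9.80, 9.86 and 10.32 against 9.98, 9.94 and 10.44. Cenpa, the histone variant of centromeres, read 11.21, 11.36 and 11.22 against 11.42, 11.30 and 11.31, a difference of -0.080 ± 0.10 with overlap. Plk1, a kinase of mitotic entry, read 9.75, 9.74 and 9.62 against 9.61, 9.60 and 9.68, again with overlap. Birc5, survivin, which guides the chromosomal passenger complex, was the steadiest gene of all 49. Its values were 12.66, 12.66 and 12.64 in Fz4-/- and 12.63, 12.61 and 12.65 in Fz4+/+ kidneys, a range of 0.052.

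Within litters the direction was mixed. In litter 1, 28 of 49 genes were higher in the Fz4-/- sample (48.5% of all tested probe sets), in litter 2, 40 were (68.2%), and in litter 3, 12 were (49.9%). The median differences of the members were 0.011, 0.067 and -0.077 in litters 1, 2 and 3. Over all tested probe sets they were -0.0066, 0.12 and -0.00025. Only 8 of 49 genes had the same direction in all 3 litters, against 21.5% of all tested probe sets. Ccnd1, Cdk1, Aurka and Tpx2 were higher in Fz4-/- in each litter (4 of 49, against 14.2% of all tested probe sets). Mcm4, Pcna, Kif20a and Cenpf were lower in each (4 of 49, against 7.28%). Some of these differences were close to 0: -0.00017 for Pcna in litter 2, and -0.0027 for Kif20a and 0.0017 for Tpx2 in litter 1. Other tested probe sets of Ccnd1, Tpx2, Mcm4 and Cenpf did not all keep 1 direction in the 3 litters.

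The S phase and mitotic genes were then set against each other in each sample. Each gene was taken as its deviation from its own mean over the 6 arrays, and the deviations were averaged over a role. The S phase average was -0.029, 0.00011 and 0.029 in the Fz4-/- samples of litters 1 to 3 and -0.062, -0.053 and 0.11 in the Fz4+/+ samples. The mitotic average was -0.020, -0.021 and 0.035 against 0.00040, -0.10 and 0.11. Both averages were highest in Fz4+/+ litter 3. The S phase average minus the mitotic average was -0.0091, 0.021 and -0.0058 in Fz4-/- and -0.062, 0.048 and 0.0080 in Fz4+/+ kidneys. The means were 0.0021 ± 0.017 and -0.0021 ± 0.056 (SD, n = 3 each), so the difference of 0.0042 was smaller than either SD. Within litters 1, 2 and 3 it was 0.053, -0.027 and -0.014. The G1/S control average was -0.032, 0.072 and -0.0067 against -0.056, -0.11 and 0.14, and it too was highest in Fz4+/+ litter 3. Medians of whole arrays were also highest in litter 3 (6.741 in Fz4-/-, 6.738 in Fz4+/+) and lowest in Fz4+/+ litter 2 (6.623). The part of such an array-wide shift in the role averages was not tested.

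**Figure D2:**
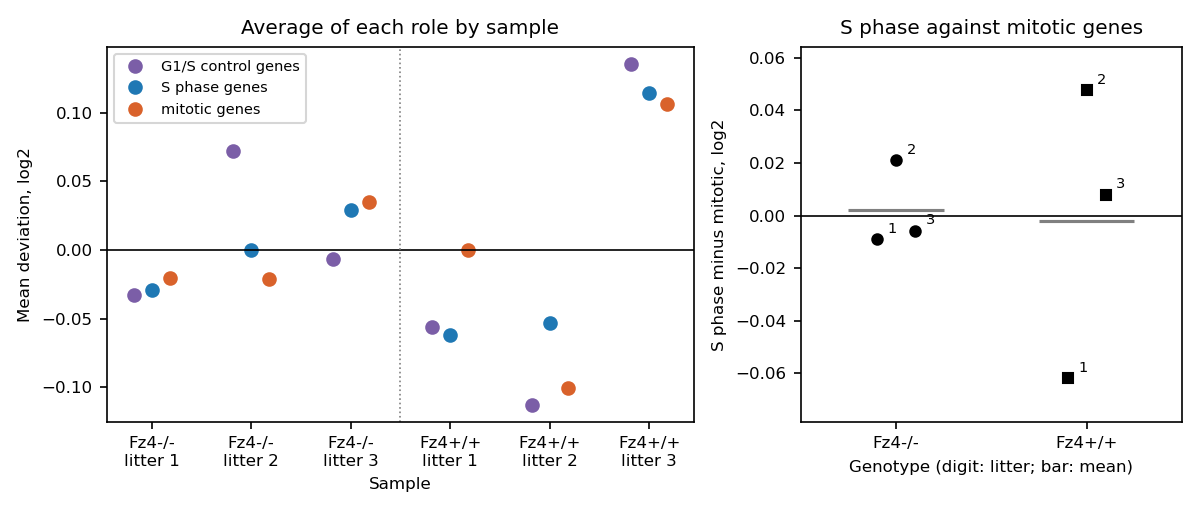
The left panel gives the mean deviation (log2) of each role in each of the 6 samples, and the right panel gives the S phase average minus the mitotic average by genotype, with a digit for the litter and a bar for the mean. The 3 roles peak together in Fz4+/+ litter 3, and the right panel overlaps between genotypes, with means of 0.0021 and -0.0021. Medians of whole arrays were also highest in litter 3.

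Litter took a median of 65.0% of the sum of squares of a member gene and genotype 5.1%, close to 65.9% and 5.9% over all tested probe sets. Litter, which has more degrees of freedom than genotype, took the larger share in 41 of 49 genes, against 88.2% of all tested probe sets. On their brightest probe sets the members varied little over the arrays. Their median range over the 6 arrays was 0.31, against 0.56 over all tested probe sets and 0.48 with 1 probe set per gene. It was 0.45 over probe sets at or above the 60th percentile of signal. Dimmer probe sets of members could vary more, as 1 of Mcm5 did, from 6.02 to 7.46. The Fz4+/+ sample of litter 3 was the highest of the 6 in 28 of 49 members (32.2% of all tested probe sets), and the Fz4+/+ sample of litter 2 was the lowest in 21 (35.4%).

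**Figure D3:**
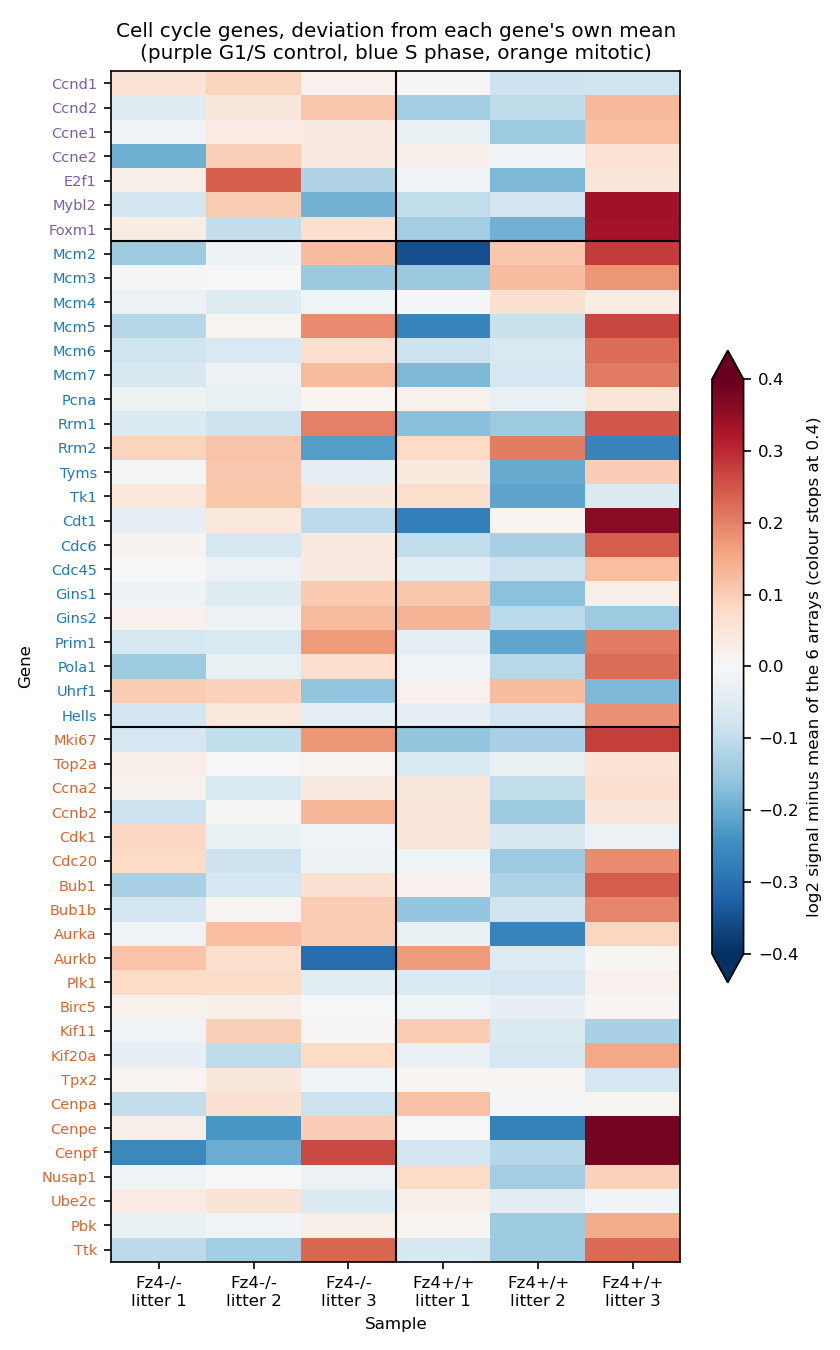
Rows are the 49 genes by role and columns are the 6 samples, and colour is the log2 signal minus the mean of the gene over all arrays, with the colour scale stopped at 0.4. The darkest red cells lie in Fz4+/+ litter 3, and Rrm2 and Uhrf1 run the other way, low in both samples of litter 3.

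No member passed the threshold between litters (0 of 49, against 0% of all tested probe sets, limma F test). At an unadjusted p under 0.05 there were 4 members, Cenpf, Rrm2, Ttk and Cenpe, against 23.0% of all tested probe sets, and 0 to 1 when any 1 sample was left out. Both samples of litter 3 lay above the other 4 samples in 20 of 49 members (36.9%) and below them in 3, Rrm2, Uhrf1 and Tpx2 (15.5%). With 1 probe set per gene, as for the members, 5241 of 12535 genes lay above and 1427 below. Both samples of litter 2 lay below the others in 8 members (8.02%), of which 6 were mitotic: Ccna2, Cdk1, Cdc20, Kif20a, Cenpe and Ttk. These shares of the members rest on 2 samples per litter. Stage, dissection and array handling cannot be told apart from litter.

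From litter 1 to litter 3, the mean of the samples was higher in 36 of 49 members (65.6% of all tested probe sets), with a median difference of 0.10 against 0.13 over all. With 1 probe set per gene, as for the members, the share higher in litter 3 was 71.8%. An unadjusted p under 0.05 was found for 7 members, against 28.5% of all tested probe sets. In Cenpf, both samples of litter 3 (10.32 and 10.44) stood above the 4 others, 0.49 ± 0.11 (SE) over litter 1, with adjusted p = 0.0970 in limma. Its other probe sets gave 0.79 and 0.90. Ttk, a spindle checkpoint kinase, read 10.41, 10.38 and 10.75 in Fz4-/- and 10.46, 10.37 and 10.75 in Fz4+/+ kidneys. Both genotypes gave the same order of litters, and the difference of litter 3 from litter 1 was 0.31 ± 0.11. On the other probe set of Ttk, 9.41, 9.81 and 9.69 against 9.72, 9.23 and 9.79, the order of litters differed between genotypes. There litter 3 was 0.17 above litter 1. Mki67 was 0.34 ± 0.11 higher in litter 3 on the same comparison. Cenpe, a kinetochore motor, read 10.53, 10.28 and 10.61 against 10.51, 10.24 and 10.89, lowest in litter 2 in both genotypes, and another of its probe sets fell by 0.39 from litter 1 to litter 3.

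The S phase genes did not all move one way between litters. Mcm5, another helicase subunit, read 10.90, 11.02 and 11.20 in Fz4-/- and 10.75, 10.92 and 11.28 in Fz4+/+ kidneys, 0.42 ± 0.12 (SE) higher in litter 3 than in litter 1. Its other probe sets gave 0.23 and 1.18. Rrm1, the large subunit of ribonucleotide reductase, read 11.14, 11.11 and 11.40 against 11.03, 11.05 and 11.44, a difference between these litters of 0.33 ± 0.11. Both samples of litter 3 were the highest for both genes. Rrm2, the small subunit of the same enzyme, read 12.69, 12.72 and 12.38 against 12.68, 12.81 and 12.34, lowest in both samples of litter 3, with a difference of -0.33 ± 0.11. Its other probe sets gave -0.16 and 0.11, and another probe set of Rrm1 gave 0.014, so the probe sets of these genes did not give one size. Uhrf1, which recruits DNA methylation after replication, was also lower in litter 3, and its other probe set gave -0.33. Mcm2 was 0.45 ± 0.14 higher in litter 3, or 0.28 with Fz4+/+ litter 1 left out, and its other probe set gave 0.21.

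The call between litters depended on how the variance was shrunk. With a trend in the variance and robust shrinkage, limma called 2990 of the tested probe sets (11.1%) and 11 members: Rrm2, Mki67, Cenpf, Prim1, Uhrf1, Mcm7, Mcm5, Rrm1, Cenpe, Mcm2 and Ttk. Of these, 7 are S phase and 4 mitotic genes, and all but Rrm2 and Uhrf1 were higher in litter 3 than in litter 1. Leaving out the Fz4-/- sample of litter 2 gave 1506 calls over all probe sets and leaving out the Fz4+/+ sample of litter 2 gave 326, with 0 members among them in either case.

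**Figure D4:**
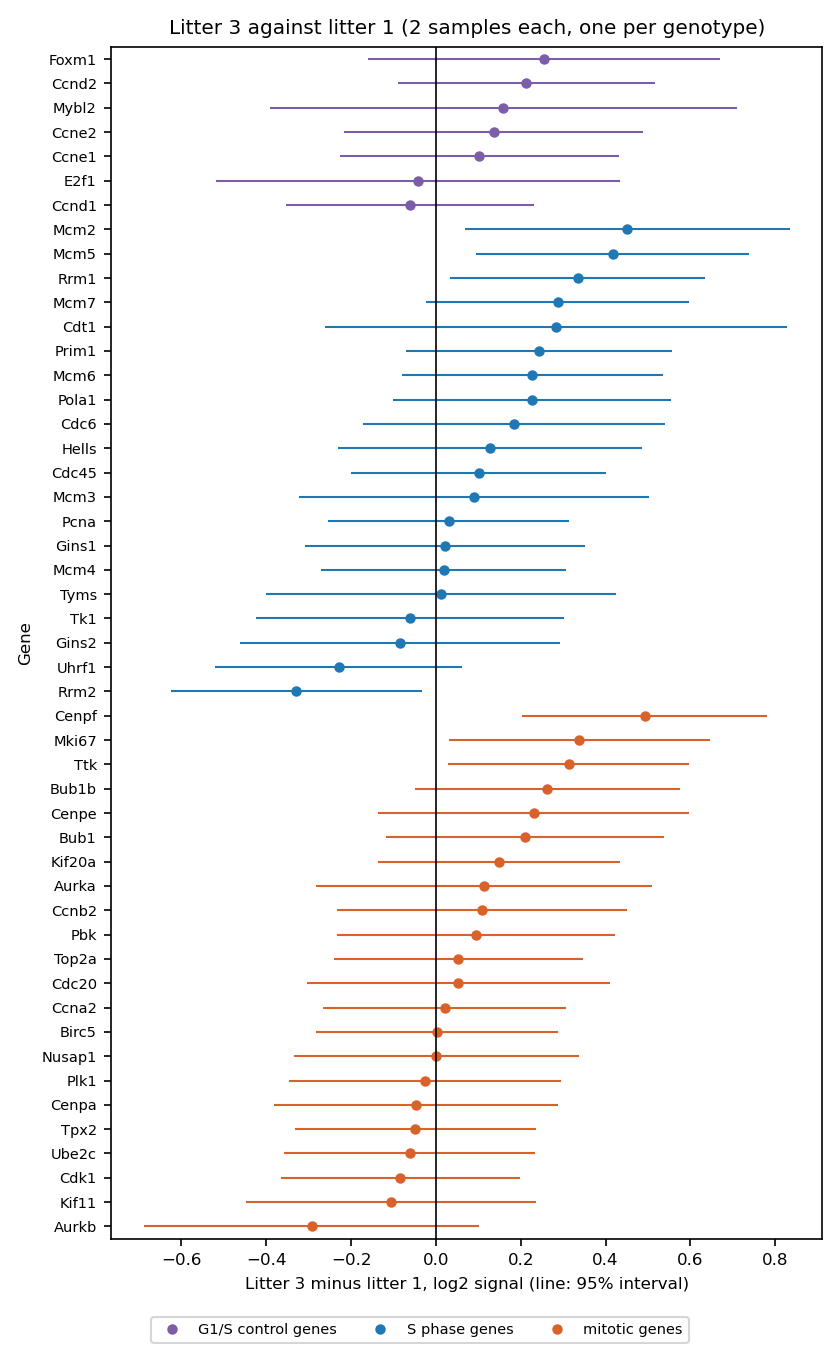
Each point is the mean of litter 3 minus that of litter 1 (log2 signal, 2 samples each), and each line is its 95% interval, with genes ordered by difference within each role. Of the 49 points, 36 lie above 0, and Cenpf at 0.49 and Rrm2 at -0.33 mark the ends.

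Other probe sets of the same genes were checked for the same differences. The members have 116 probe sets, and of the 67 that are not the brightest, 57 passed the filter. Their differences ran from -0.47 to 0.38 with a median of 0.057, and 0 of 57 had an unadjusted p under 0.05. The sign was that of the brightest probe set in 37 of 57 for genotype and in 41 of 57 for litter 3 against litter 1. The 3 differences past 0.2 belonged to Tyms, Mcm5 and Bub1.

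Other genes of the cycle, listed apart from the members, were measured in the same way. Of 40 other replication genes 37 were tested, 0 passed the threshold in either direction, and 24 lay above 0 with a median difference of 0.029. The smallest unadjusted p values were those of Orc4, of the origin complex (-0.13), Gins3, of the helicase (0.14) and Pola2, of polymerase alpha (0.15). Of 46 other mitotic genes 45 were tested, 0 passed and 22 lay above 0, median -0.0083, led by Cenpm (0.20), Espl1, separase (0.24) and Pttg1, securin (0.27). All 18 other G1/S control genes were tested, 0 passed and 14 lay above 0, median 0.032, led by the kinases Cdk6 (0.30) and Cdk2 (0.13) and by E2f7 (0.16). Of 18 brakes on the cycle 16 were tested, 0 passed and 9 lay above 0, median 0.015. The brakes with the smallest p were Cdkn2c, an inhibitor of Cdk4 and Cdk6 (-0.19), E2f5, a repressor E2F (-0.24) and Ccng1, cyclin G1 (0.12).

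Some litter differences in these lists were larger than that of any member, each gene being read from its brightest probe set. Other tested probe sets of members gave up to 1.18 (Mcm5) and 0.96 (Bub1) for litter 3 minus litter 1. Both samples of litter 3 lay above the others in 22 of 37 other replication genes and 27 of 45 other mitotic genes, against 36.9% of all tested probe sets. With 1 probe set per gene, as in these lists, it was 5241 of 12535 genes. Kif15, a spindle motor, read 8.51, 7.54 and 6.19 in Fz4-/- and 8.13, 7.92 and 5.23 in Fz4+/+ kidneys, lowest in litter 3 in both genotypes. The difference of litter 3 from litter 1 was -2.61 ± 0.34 (SE), with adjusted p = 0.145 in the limma F test. Cdkn1b, the inhibitor p27 of cyclin E and Cdk2, read 10.82, 10.19 and 9.97 against 10.61, 10.14 and 9.94, lowest in litter 3 in both (-0.76 ± 0.11). Rbl2, the pocket protein p130 of resting cells, read 7.44, 7.77 and 8.36 against 7.25, 7.46 and 8.07, highest in litter 3 in both (0.87 ± 0.11). The others chosen by the same rule were Nek2 (0.82), Cenpk (0.51), Mcm8 (0.66), Rpa1 (0.35), Rfc4 (0.14), Pkmyt1 (0.57), Cdk6 (0.39), E2f6 (0.28) and E2f5 (0.53), all as litter 3 minus litter 1.

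Markers of several other cell types were also highest in the sample that was highest in most members, and those of others were not. The erythroid list (8 of 14 genes tested) averaged 0.20, -0.15 and -0.067 in the Fz4-/- samples and -0.31, -0.56 and 0.88 in the Fz4+/+ samples, as deviations from the gene means. It was highest in Fz4+/+ litter 3 and lowest in Fz4+/+ litter 2, the samples in which the members were most often highest and lowest. The macrophage list (13 of 14) averaged -0.039, -0.18 and 0.092 against -0.10, -0.19 and 0.42. The neuron and chromaffin list (8 of 14) gave -0.42, -0.41 and -0.021 against -0.27, 0.40 and 0.73. The liver list (8 of 12) gave 0.53, -0.86 and -0.55 against 0.49, -0.57 and 0.96. Each of these lists was highest in Fz4+/+ litter 3, whereas the muscle list (19 of 22) was highest in Fz4+/+ litter 2, at 0.63, and lowest in Fz4-/- litter 2, at -0.92. The nephron progenitor list gave -0.12, 0.019 and -0.036 against -0.028, 0.022 and 0.14, also highest in Fz4+/+ litter 3. In that sample the endothelial list stood at -0.0032, early nephron epithelium at -0.065, ureteric bud at 0.024 and renal stroma at 0.10, and none of these lists was highest there. The part of these cells in the values of the cell cycle genes was not tested.

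**Figure D5:**
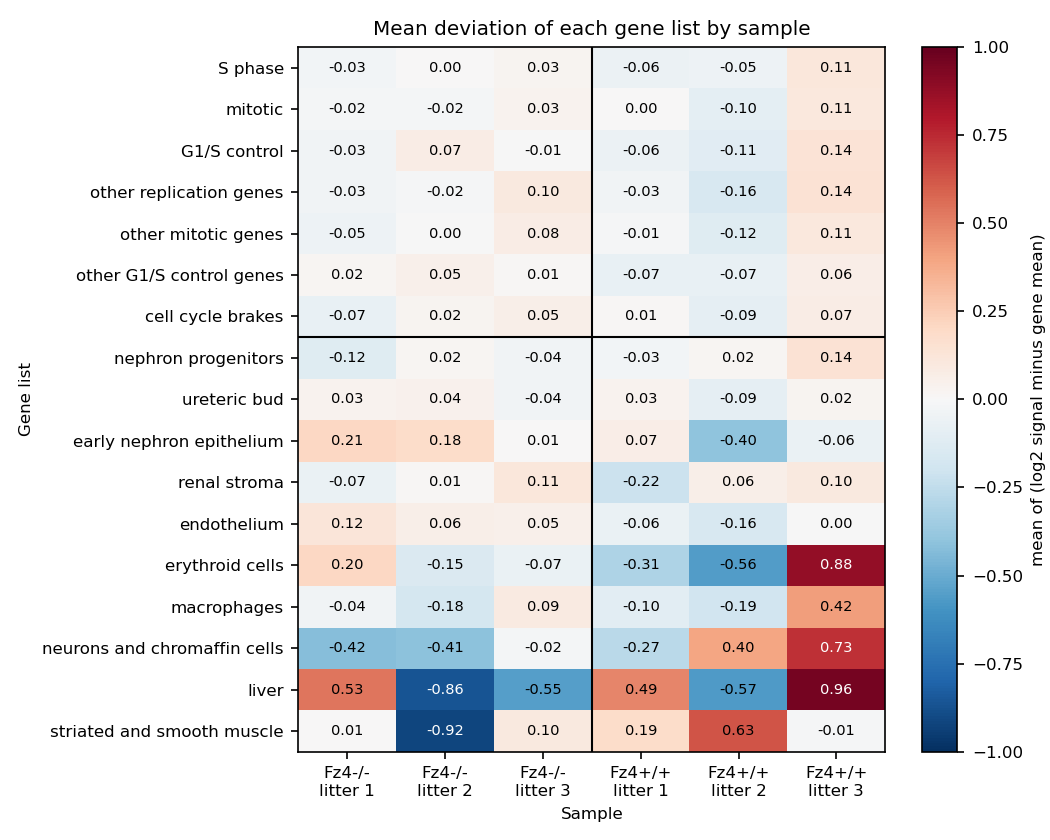
Rows are gene lists and columns are the 6 samples, and each number is the mean deviation (log2) of the tested genes of the list from their own means. The cell cycle rows stay between -0.16 and 0.14, while the erythroid, liver and neuron rows reach 0.73 to 0.96 in Fz4+/+ litter 3.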

How the data were processed

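Gene expression was measured in 6 samples of whole kidneys at E13.5, 3 Fz4-/- and 3 Fz4+/+. The authors deposited log2 signals for each probe set, summarised with RMA according to the submitters' processing notes (version not given in the sources used here), and these were taken with no further step. Since RMA evens out the distributions of the arrays, a shift in all genes at once would be hidden. All sample columns were used, and precision is limited by having 6 arrays.

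Of 45101 probe sets, 34958 had 1 gene in the platform annotation, 932 several and 9211 none. Entrez numbers matched RefSeq GRCm38.p6 for 34754, and 0 symbols changed. After 64 control probe sets were left out, the 27022 whose mean reached the 40th percentile (5.89 log2) entered a limma 3.58.1 fit under R 4.3.3. Its two-sided moderated tests (lmFit, then eBayes) were adjusted by Benjamini-Hochberg over all of them, with a threshold of 0.05. Genotype was the sole term. Litters were compared in a fit with genotype and litter, by the F test of the litter terms and by pairwise contrasts. The code was tested on simulated data.

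The labels give litters, so equal numbers mark a shared litter. Deviations from the genotype means correlated at 0.577, 0.178 and 0.809 between the samples of litters 1, 2 and 3, but Fz4-/- litter 1 correlated most with Fz4+/+ litter 2 (0.609). By median absolute difference the samples of litter 1 (0.151) and of litter 3 (0.152) were the closest pairs. Fz4-/- litter 2 was closer to Fz4+/+ litter 1 (0.175) than to Fz4+/+ litter 2 (0.221).

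Members and lists were chosen with earlier results of these data known. Members given per sample were those without overlap between genotypes, the 6 with the smallest genotype p, the 4 of each role with the smallest litter p, the widest and narrowest range of each role, and Mki67, Pcna, Mcm2 and Ccnd1. From each other cycle list up to 3 genes by genotype p and up to 3 by litter p were named. Alternatives were a litter block, other filters, quantile normalisation, array weights, another variance prior, the mean of all probe sets of a gene and leaving out samples.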

Additional observations from a re-analysis of the deposited data

How the results depend on the processing

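With 3 samples per genotype no tested probe set reached the adjusted threshold, not even Fzd4, whose Fz4-/- values were widely spread. The absence of calls among the members by itself sets no bound on their differences, and the unadjusted intervals are the measure of precision. The labels pair the samples by litter, and with the litter block the members kept 0 calls and no other call changed, while unadjusted p under 0.05 rose from 239 to 841 of all tested probe sets. Array weights gave 2 genotype calls over all probe sets, none of them a member. In the genotype fit the weights were 0.66, 8.81 and 0.51 in Fz4-/- litters 1 to 3 and 2.99, 0.52 and 0.22 in Fz4+/+. The weighted estimates thus leaned on Fz4-/- litter 2 and Fz4+/+ litter 1, samples of different litters. Litter calls over all probe sets, 0 here, became 3 with the 60th percentile filter, 2990 with the trended robust prior and 1 with gene means. They ranged from 0 to 1506 when a sample was left out, with 1506 without Fz4-/- litter 2 and 326 without Fz4+/+ litter 2. The S phase average minus the mitotic average differed between genotypes by 0.060 with array weights, and by -0.026 to 0.029 when a sample was left out.

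Small genotype differences changed sign without passing the test. Array weights leaned on Fz4-/- litter 2 and Fz4+/+ litter 1. With them the differences were 0.083 for Mcm3, 0.041 for Foxm1, 0.057 for Ccne2, 0.018 for Rrm2, 0.23 for Mcm2 and 0.23 for Cdt1. With the mean of all probe sets they were 0.028 for Cenpa, 0.059 for Foxm1, 0.036 for Cdt1, 0.023 for Ttk and 0.041 for Cenpe, and Cenpe from litter 1 to litter 3 became -0.081. Quantile normalisation gave 0.00030 for Rrm2. Leaving out whole litters was chosen after the data were seen. Without litter 3 the differences were 0.0087 for Mcm3, 0.13 for Foxm1, 0.039 for Mcm2, 0.14 for Cdt1 and 0.031 for Cenpe. Without litter 2 they were -0.037 for Ccne1, 0.029 for Rrm2, 0.028 for Mcm2 and -0.0055 for Mki67. Leaving out 1 sample gave -0.097 to 0.17 for Foxm1, -0.10 to 0.045 for Ccne2, -0.028 to 0.10 for Ccne1, -0.15 to 0.096 for Rrm2, -0.060 to 0.20 for Mcm5, -0.047 to 0.18 for Rrm1, -0.21 to 0.11 for Mcm2, -0.22 to 0.099 for Cdt1, -0.29 to 0.032 for Cenpf, -0.13 to 0.099 for Ttk, -0.23 to 0.099 for Cenpe and -0.080 to 0.15 for Mki67. It kept the sign but moved the size for Aurka (0.041 to 0.22), Tk1 (0.059 to 0.20), Mcm3 (-0.20 to -0.040), Cenpa (-0.13 to -0.042), Plk1 (0.049 to 0.11) and Ccnd2 (0.021 to 0.15), and for Mcm2 from litter 1 to litter 3 (0.28 to 0.62). The cause was not tested.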
